A study of Mus musculus with 10 samples.

Results

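The genes described here are 38 genes of DNA replication and mitosis, 18 of replication and 20 of mitosis, followed through isolated pancreatic islets of mice. They were chosen by symbol, each symbol matched 1 Ensembl gene, and they are 38 of the 52178 genes in the deposited table. The exercise group consisted of 5 RNA-seq libraries (exercise 6 to 10) from male C57Bl/6 retired breeders that ran on a treadmill in sessions of 1 hour, 5 times weekly over 2 weeks, after 3 days of acclimatization (speed 17 cm/s, incline 5 degrees). The sedentary group consisted of 5 libraries (sedentary 1 to 5) from male C57Bl/6 mice labelled sedentary. Islets of both groups were released with collagenase, hand-picked and placed in islet medium containing 11 mM glucose, and no genetic change or drug is named for either group. The series title names AMPK, an energy-sensing kinase, and senescence, a lasting exit from the cell cycle, and the comparison asked how islet transcripts differed after training. No label assigns a library to a single animal, and the p-values therefore reflect variation among libraries that could be technical in part.

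A cell that divides first copies its DNA and then separates the copies. Replication origins are licensed when Cdc6 and Cdt1 load the ring-shaped MCM helicase, which later unwinds the DNA ahead of the polymerases, and mitosis is driven by Cdk1 with its cyclins, by the Aurora and Polo-like kinases, and by the anaphase-promoting complex. Transcripts of replication genes are known to peak earlier in the cycle, under E2F factors, and transcripts of mitosis genes later, under a complex that binds the cell cycle homology region (CHR), often beside CCAAT boxes. Adult islet beta cells seldom divide, whereas the intestinal crypt and activated lymphocytes hold many dividing cells. In bulk libraries, fewer dividing cells and less of these transcripts per cell cannot be told apart.

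The promoters of the replication genes and of the mitosis genes held different letters. Windows of 300 bases, 250 before and 50 after the transcript start, were found for 32 of the 38 genes in a RefSeq table (build GRCm38.p6), 16 of each kind. The E2F-like letters TTTCCCGC, TTTCGCGC, TTTGCCGC or TTTGGCGC stood on either strand in 8 of 16 replication genes and 1 of 16 mitosis genes (Cdk1), against 2.60% of all 27025 genes with a window. The CHR letters TTTGAA or TTCGAA stood on either strand in 3 of 16 replication genes and 13 of 16 mitosis genes, against 21.7% of all genes. CCAAT on either strand stood in 11 of 16 replication genes and 14 of 16 mitosis genes, against 41.1% of all genes. Neighbouring E2F-like matches can overlap each other, as TTTCGCGC and TTTGGCGC do on opposite strands in Mcm5. These are letter matches, not measured binding sites.

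**Figure D1:**
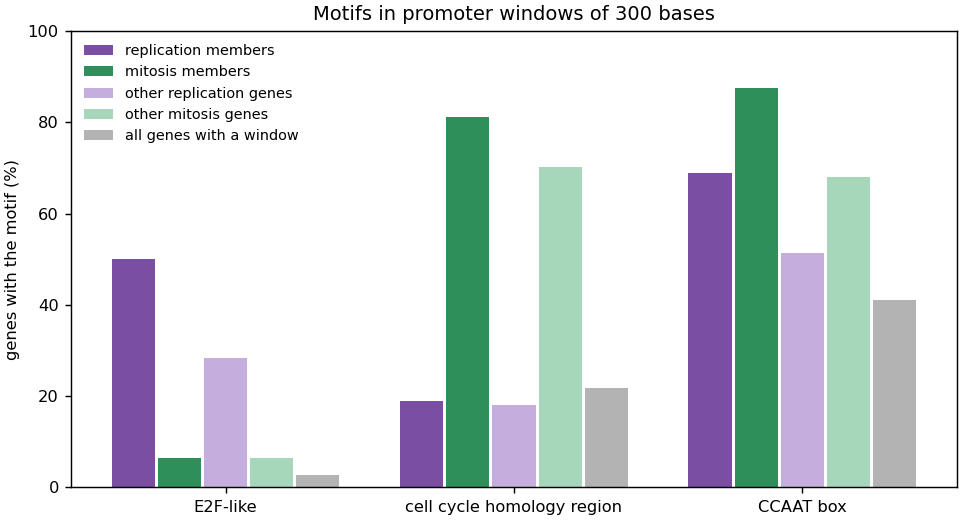
Share of genes (%, y axis) whose 300-base promoter windows hold E2F-like letters, CHR letters or a CCAAT box (x axis), for the replication and mitosis genes, for longer lists of other replication and mitosis genes, and for all 27025 genes with a window. The E2F-like bar is highest for the replication genes (50%) and the CHR bar is highest for the mitosis genes (81.2%).

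The windows of the 3 replication genes of smallest p with an E2F-like match and of the 3 mitosis genes of smallest p with a CHR match are printed to show how these letters sit near the start, 5′ to 3′ on the gene's strand, with E2F-like and CHR matches in capitals.
Cdc6 (chr11:98907901-98908200, + strand): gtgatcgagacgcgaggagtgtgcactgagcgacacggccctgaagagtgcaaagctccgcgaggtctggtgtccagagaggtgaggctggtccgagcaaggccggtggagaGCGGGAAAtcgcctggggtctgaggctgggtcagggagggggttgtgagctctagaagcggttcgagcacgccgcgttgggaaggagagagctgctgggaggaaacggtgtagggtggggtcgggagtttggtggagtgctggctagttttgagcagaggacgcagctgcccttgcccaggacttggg
Mcm5 (chr8:75109259-75109558, + strand): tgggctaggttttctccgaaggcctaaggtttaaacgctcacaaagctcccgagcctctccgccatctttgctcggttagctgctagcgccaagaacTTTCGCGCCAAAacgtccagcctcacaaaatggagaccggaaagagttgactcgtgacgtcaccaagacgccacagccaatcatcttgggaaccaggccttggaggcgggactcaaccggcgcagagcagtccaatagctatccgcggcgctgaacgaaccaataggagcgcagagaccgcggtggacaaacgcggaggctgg
Mcm6 (chr1:128359656-128359955, - strand): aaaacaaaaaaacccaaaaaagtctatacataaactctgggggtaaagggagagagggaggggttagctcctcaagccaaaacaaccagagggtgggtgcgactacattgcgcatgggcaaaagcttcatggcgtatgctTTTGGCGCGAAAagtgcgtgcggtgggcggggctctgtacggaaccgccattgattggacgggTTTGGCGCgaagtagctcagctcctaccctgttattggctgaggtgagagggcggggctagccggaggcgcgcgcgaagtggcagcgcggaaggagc
Bub1 (chr2:127831810-127832109, - strand): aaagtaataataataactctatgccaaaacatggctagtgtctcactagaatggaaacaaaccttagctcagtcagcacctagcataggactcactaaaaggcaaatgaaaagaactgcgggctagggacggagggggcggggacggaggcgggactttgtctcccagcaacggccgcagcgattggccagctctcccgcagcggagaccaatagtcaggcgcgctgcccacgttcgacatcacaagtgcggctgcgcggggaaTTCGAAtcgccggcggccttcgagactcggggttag
Plk1 (chr7:122159185-122159484, + strand): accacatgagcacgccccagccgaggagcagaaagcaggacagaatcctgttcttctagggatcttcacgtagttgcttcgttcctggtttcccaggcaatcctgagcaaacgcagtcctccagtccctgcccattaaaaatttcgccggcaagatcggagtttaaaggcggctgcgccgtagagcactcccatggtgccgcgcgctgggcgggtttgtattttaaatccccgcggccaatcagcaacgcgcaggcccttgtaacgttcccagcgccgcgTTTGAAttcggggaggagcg
Ube2c (chr2:164769679-164769978, + strand): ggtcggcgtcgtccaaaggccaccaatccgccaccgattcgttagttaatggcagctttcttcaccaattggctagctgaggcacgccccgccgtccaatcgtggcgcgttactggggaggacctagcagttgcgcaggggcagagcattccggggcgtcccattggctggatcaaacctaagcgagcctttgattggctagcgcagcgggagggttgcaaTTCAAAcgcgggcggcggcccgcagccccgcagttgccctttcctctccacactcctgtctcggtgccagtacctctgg
Counted from the start base as 0, the E2F-like matches began at -138 in Cdc6, at -153 and -149 in Mcm5, and at -110, -106 and -47 in Mcm6. The CHR match began at 14 in Bub1, at 30 in Plk1 and at -29 in Ube2c.

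Library totals lay between 15081922 and 23222704 counts. Levels are given as CPM, the count scaled by the library's total after TMM adjustment. Sedentary 1 and 2 stood apart from the other libraries. The summed level of 18 islet endocrine genes, among them those of insulin and glucagon, lay between 154700 and 211700 CPM in the exercise libraries, against 9466 CPM in sedentary 1, 43360 CPM in sedentary 2 and between 153600 and 226500 CPM in sedentary 3 to 5. The summed level of 28 genes of the small intestinal epithelium lay between 469.8 and 1252 CPM in exercise libraries and was 20090 and 30700 CPM in sedentary 1 and 2, and between 4338 and 5995 CPM in sedentary 3 to 5. Counts of calls and the named genes that fell are therefore also given without sedentary 1 and 2, from the fit of 8 libraries. That fit keeps a difference in the intestinal sum, since sedentary 3 to 5 also lay above every exercise library in it.

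Transcripts of mitosis were broadly lower in exercise than in sedentary libraries, and transcripts of replication were lower in part. Of 20 mitosis genes 17 fell, 0 rose and 3 did not pass, and of 18 replication genes 10 fell, 0 rose and 8 did not pass (adjusted p under 0.05 in edgeR's quasi-likelihood test, adjusted by Benjamini and Hochberg's method over 15298 genes). Of all genes tested, 11.4% fell and 2.44% rose under the same rule, so that 82.4% of all calls were lower, against 96.5% with libraries scaled by their totals alone (28.8% fell and 1.04% rose). The median log2 fold change was -2.26 for mitosis genes, or 4.79-fold lower in exercise, and -1.15 for replication genes, or 2.22-fold lower, beside -0.000719 for all genes tested. All 38 genes passed the filter on low counts and all 38 had a negative log2 fold change. Without sedentary 1 and 2, 12 of 20 mitosis genes and 6 of 18 replication genes fell, against 8.68% of all genes that fell and 4.10% that rose, with median log2 fold changes of -1.15 for mitosis and -0.56 for replication genes. Each of these 18 genes had also fallen with 10 libraries.

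The calls depended on the test and on single libraries. Limma-voom called 2.22% of all genes lower and 1.16% higher. Among the 38 it called only Cdc6 (limma-voom adjusted p = 0.0462), with adjusted p between 0.0566 and 0.401 for the others. Unadjusted limma-voom p was under 0.05 for 13 replication and 20 mitosis genes, beside 5202 of all 15298 genes tested. DESeq2, which called 17.3% of all genes lower and 7.17% higher, called 16 replication and 20 mitosis genes lower. Among the edgeR fits that left out a single library, the count of replication genes that fell was 4 to 6 without any exercise library and without sedentary 1 or 2, and 17 without sedentary 4. The count of mitosis genes was 4 without exercise 8, 6 without exercise 9, 8 without exercise 10 and 11 without exercise 6. In these 10 fits 5.16% to 17.7% of all genes fell. Mcm5, Tk1, Gins2 and Cdc6 fell in each of the 10 fits, as did Ccnb1, Bub1, Aurkb and Nusap1.

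**Figure D2:**
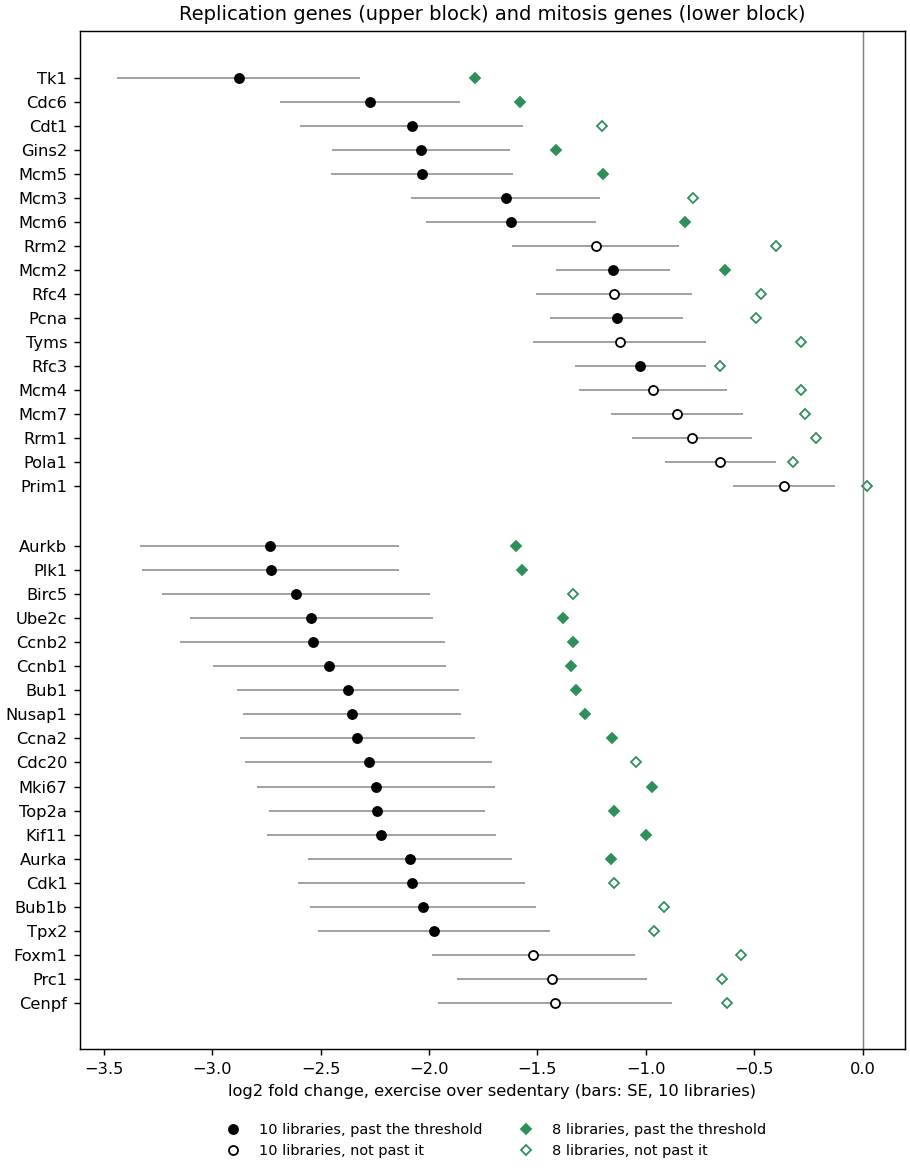
Log2 fold change of exercise over sedentary islets (x axis) for each gene (rows), replication above and mitosis below, with all 10 libraries (circles, bars are SE) and with 8 libraries without sedentary 1 and 2 (diamonds), filled where the gene passed the threshold. All circles lie below 0, and each diamond lies nearer to 0 than its circle.

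The summed levels varied more among the sedentary than among the exercise libraries. The 20 mitosis genes summed to 69.1, 96.5, 59.3, 54.2 and 48.2 CPM in exercise 6 to 10, against 416, 662, 149.9, 87.6 and 184 CPM in sedentary 1 to 5. The 18 replication genes summed to 115, 114, 104, 124 and 121 CPM in exercise 6 to 10, against 397, 438, 173, 125 and 215 CPM in sedentary 1 to 5. Sedentary 2 and 1 were highest in both sums, and sedentary 4 was lowest of its group, below exercise 7 for mitosis and just above exercise 9 for replication. The mitosis sum averaged 65.5 ± 19 CPM in exercise and 299.7 ± 237 CPM in sedentary libraries, and the replication sum averaged 116 ± 7.73 CPM in exercise and 269.6 ± 139.8 CPM in sedentary libraries (SD, n = 5 each).

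The mitosis genes had the larger median change. The summed mitosis level divided by the summed replication level does not depend on library scaling. It was 0.60, 0.844, 0.572, 0.437 and 0.398 in exercise 6 to 10, against 1.05, 1.51, 0.868, 0.703 and 0.854 in sedentary 1 to 5. The groups overlapped, since exercise 7 lay above sedentary 4. The mean ratio was 0.570 ± 0.175 in exercise and 0.996 ± 0.312 in sedentary libraries (SD, n = 5 each), and no p-value is given for a sum over chosen genes. The median log2 fold change of mitosis genes was lower than that of replication genes by 1.11, and by 0.59 without sedentary 1 and 2.

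**Figure D3:**
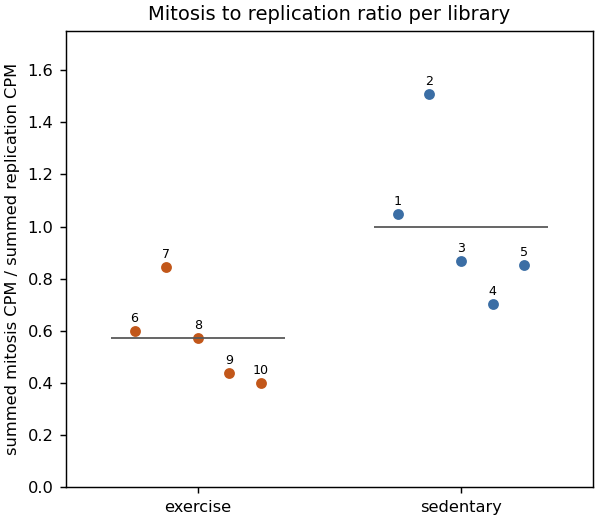
Summed CPM of 20 mitosis genes divided by summed CPM of 18 replication genes (y axis) in each exercise library and each sedentary library (x axis, points labelled by library number), with group means as lines. The exercise libraries lie between 0.398 and 0.844 and the sedentary libraries between 0.703 and 1.51.

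Both licensing factors fell with 10 libraries. Cdc6 (ENSMUSG00000017499), which loads the helicase onto origins, had 0.503, 0.716, 0.345, 0.773 and 0.635 CPM in exercise 6 to 10, against 5.14, 3.88, 2.16, 1.38 and 1.91 CPM in sedentary 1 to 5. Every exercise library lay below every sedentary library (log2 fold change -2.27 with an SE of 0.41, edgeR adjusted p = 0.00916), and the gene fell in each fit that left out a single library and without sedentary 1 and 2 (log2 fold change -1.58). Its values rest on 51 counts over the exercise libraries and 267 over the sedentary libraries. Cdt1, the partner of Cdc6 in licensing, had 1.4, 1.56, 1.44, 3.09 and 3.56 CPM in exercise 6 to 10, against 15.8, 15.6, 5.77, 2.59 and 7.29 CPM in sedentary 1 to 5. Exercise 9 and 10 lay above sedentary 4, so the groups overlapped (log2 fold change -2.08 with an SE of 0.51, edgeR adjusted p = 0.0260). The fall of Cdt1 did not pass without sedentary 1 and 2 (log2 fold change -1.20, edgeR adjusted p = 0.0898), nor without any 1 of exercise 6 to 9, sedentary 1 or sedentary 2 (highest edgeR adjusted p = 0.0711).

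Of the 6 subunits of the MCM helicase, Mcm2, Mcm3, Mcm5 and Mcm6 fell, while Mcm4 and Mcm7 did not pass. Mcm5 (ENSMUSG00000005410) had 4.86, 5.53, 2.76, 5.67 and 4.59 CPM in exercise 6 to 10, against 30.8, 32.3, 11.4, 7.3 and 14.1 CPM in sedentary 1 to 5 (log2 fold change -2.03 with an SE of 0.42, edgeR adjusted p = 0.0132). Mcm2 had 7.82, 9.11, 6.67, 7.47 and 8.3 CPM in exercise 6 to 10, against 25.3, 24.9, 12.3, 11 and 14 CPM in sedentary 1 to 5 (log2 fold change -1.15 with an SE of 0.26, edgeR adjusted p = 0.0187). For these 2 subunits no exercise library reached the lowest sedentary library, and both fell without sedentary 1 and 2 (-1.20 and -0.63 on the log2 scale). The fall of Mcm2 did not pass without exercise 8 or 9 (highest edgeR adjusted p = 0.0556). Mcm6 had 10.4, 8.53, 7.02, 13.1 and 11.1 CPM in exercise 6 to 10, against 49.5, 51, 19.1, 12 and 22.9 CPM in sedentary 1 to 5 (log2 fold change -1.62 with an SE of 0.39, edgeR adjusted p = 0.0239). Mcm3 had 3.3, 4.1, 3.16, 6.18 and 5.52 CPM in exercise 6 to 10, against 24.1, 22.3, 7.93, 4.92 and 10.6 CPM in sedentary 1 to 5 (log2 fold change -1.65 with an SE of 0.44, edgeR adjusted p = 0.0336). Both overlapped, through exercise 9 above sedentary 4 for Mcm6 and through exercise 9 and 10 above it for Mcm3, and of this pair only Mcm6 passed in the 8 libraries (edgeR adjusted p = 0.0493 and 0.115). The call of Mcm3 was lost without any 1 exercise library, sedentary 1 or sedentary 2, and that of Mcm6 without exercise 6, 7, 8 or 10 or sedentary 1 (highest edgeR adjusted p = 0.0853 and 0.0669). Mcm4 and Mcm7 had log2 fold changes of -0.97 and -0.86 (edgeR adjusted p = 0.0822 and 0.0824).

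At the replication fork, Gins2, Pcna and Rfc3 fell, and Rfc4, Pola1 and Prim1 did not pass. Gins2, a subunit of the GINS complex that activates the helicase, had 0.894, 0.651, 0.633, 0.451 and 0.683 CPM in exercise 6 to 10, against 3.17, 5.13, 1.61, 1.21 and 2.64 CPM in sedentary 1 to 5, without overlap (log2 fold change -2.04 with an SE of 0.41, edgeR adjusted p = 0.0118), and fell in the 8 libraries too (-1.42). Pcna (ENSMUSG00000027342), the sliding clamp that holds polymerases on DNA and also serves DNA repair, had 23.9, 21.6, 21.3, 24.3 and 23.2 CPM in exercise 6 to 10, against 71.7, 81, 30.7, 24.8 and 42.6 CPM in sedentary 1 to 5. The groups did not overlap, though sedentary 4 lay within 1 CPM of exercise 9 (log2 fold change -1.13 with an SE of 0.31, edgeR adjusted p = 0.0358). The call of Pcna was lost without sedentary 1 and 2 (log2 fold change -0.49, edgeR adjusted p = 0.0663), as it was without any 1 exercise library, sedentary 1 or sedentary 2 (highest edgeR adjusted p = 0.0874). Rfc3, a subunit of the clamp loader, passed with 10 libraries (log2 fold change -1.03, edgeR adjusted p = 0.0471) but not under upper quartile scaling, without a filter or with libraries thinned to equal depth. It was called in 2 of the 10 fits without a single library, those without sedentary 3 or 4 (highest edgeR adjusted p = 0.111), and not without sedentary 1 and 2. Rfc4 of the same loader did not pass (log2 fold change -1.15, edgeR adjusted p = 0.0573). Neither did Pola1 and Prim1, the catalytic subunits of the polymerase and primase that start new strands (-0.66 and -0.36, edgeR adjusted p = 0.105 and 0.286), which had the smallest changes of all 38 genes.

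Of 4 enzymes of nucleotide supply, Tk1 fell and 3 did not pass. Tk1 (ENSMUSG00000025574), the thymidine kinase that salvages thymidine in dividing cells, had 1.34, 1.04, 1.27, 1.03 and 1.47 CPM in exercise 6 to 10, against 10.5, 21.9, 3.55, 2.46 and 7.05 CPM in sedentary 1 to 5. It had the largest log2 fold change of all 38 genes, the groups did not overlap (log2 fold change -2.88 with an SE of 0.56, edgeR adjusted p = 0.0105), and it fell in every fit that left out a single library and in the 8 libraries (-1.79). Rrm2, the regulated subunit of ribonucleotide reductase, had 7.04, 6.38, 5.98, 7.34 and 5.96 CPM in exercise 6 to 10, against 29.4, 21.1, 10.2, 5.92 and 10.3 CPM in sedentary 1 to 5. It did not pass (log2 fold change -1.23 with an SE of 0.38, edgeR adjusted p = 0.0573; -0.40 on the log2 scale in the 8 libraries), and sedentary 4 lay below the 5 exercise libraries. Rrm1, the other subunit, and Tyms, thymidylate synthase, had log2 fold changes of -0.79 and -1.12 and did not pass (edgeR adjusted p = 0.0809 and 0.0832). The counts of Rrm1 and Tyms were not whole in 9 and 10 of 10 libraries, as happens where the estimate divides reads between genes.

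Among mitosis genes, the chromosome proteins Mki67 and Top2a had the highest CPM. Mki67 (ENSMUSG00000031004), which coats mitotic chromosomes and is the usual marker of dividing cells, had 9.61, 16.7, 11.4, 8.12 and 9.08 CPM in exercise 6 to 10, against 79.5, 115, 27.3, 13.9 and 24.4 CPM in sedentary 1 to 5. Exercise 7 lay above sedentary 4 (log2 fold change -2.25 with an SE of 0.55, edgeR adjusted p = 0.0247), and the log2 fold change was -0.97 in the 8 libraries (edgeR adjusted p = 0.0420). The call of Mki67 was lost without exercise 6, 8, 9 or 10 or sedentary 1 (highest edgeR adjusted p = 0.0699). Top2a (ENSMUSG00000020914), the topoisomerase that untangles sister DNA, had 9.28, 14.4, 7.94, 9.72 and 6.54 CPM in exercise 6 to 10, against 65, 96.3, 22.8, 15 and 26.7 CPM in sedentary 1 to 5. No exercise library reached the lowest sedentary library (log2 fold change -2.24 with an SE of 0.50, edgeR adjusted p = 0.0175), and Top2a fell in the 8 libraries too (-1.15). Its call was lost without exercise 8 (edgeR adjusted p = 0.0530).

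Cdk1 and its cyclins all fell with 10 libraries. Ccnb1, encoding cyclin B1, had 2.18, 3.12, 2.07, 1.87 and 1.66 CPM in exercise 6 to 10, against 17.5, 25.7, 6.16, 2.89 and 7.88 CPM in sedentary 1 to 5. Exercise 7 lay above sedentary 4 (log2 fold change -2.46 with an SE of 0.54, edgeR adjusted p = 0.0163), and Ccnb1 fell in each fit without a single library. Cdk1 had 3.19, 4.56, 2.65, 1.61 and 1.71 CPM in exercise 6 to 10, against 14.6, 24.9, 6.66, 3.41 and 8.42 CPM in sedentary 1 to 5 (log2 fold change -2.08 with an SE of 0.52, edgeR adjusted p = 0.0277), and again exercise 7 exceeded sedentary 4. Its call was lost without exercise 6, 8, 9 or 10 or sedentary 1 or 2 (highest edgeR adjusted p = 0.0763). Cdk1 did not pass in the 8 libraries (log2 fold change -1.15, edgeR adjusted p = 0.0813), where Ccnb1 (edgeR adjusted p = 0.0239), Ccna2 (0.0245) and Ccnb2 (0.0454) did. Ccna2, encoding cyclin A2, and Ccnb2, encoding cyclin B2, had log2 fold changes of -2.33 and -2.54 with 10 libraries and no overlap between groups. Exercise 7 lay close below sedentary 4 in both (6.18 and 6.26 CPM for Ccna2, 3.125 and 3.33 CPM for Ccnb2). The calls of Ccna2 and Ccnb2 were lost without exercise 8, 9 or 10 (their highest edgeR adjusted p = 0.0590 and 0.0678). Foxm1, a transcription factor that activates mitosis genes, had 3.33 ± 1.07 CPM in exercise and 9.54 ± 6.93 CPM in sedentary libraries (SD, n = 5 each) and did not pass (log2 fold change -1.52 with an SE of 0.47, edgeR adjusted p = 0.0553).

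The genes of 3 mitotic kinases and of Survivin fell. Aurkb, the kinase of the chromosomal passenger complex, had 1.17, 1.56, 0.46, 1.29 and 1.02 CPM in exercise 6 to 10, against 9.68, 16.9, 3.66, 1.77 and 4.75 CPM in sedentary 1 to 5 (log2 fold change -2.73 with an SE of 0.60, edgeR adjusted p = 0.0163). Plk1, which acts from mitotic entry to cell division, had 1.96, 2.21, 1.21, 1.29 and 1.12 CPM in exercise 6 to 10, against 14.7, 23, 4.94, 1.99 and 7.2 CPM in sedentary 1 to 5 (log2 fold change -2.73 with an SE of 0.59, edgeR adjusted p = 0.0160). Aurka, the kinase of the spindle poles, had 1.62, 1.95, 1.44, 1.03 and 1.47 CPM in exercise 6 to 10, against 7.41, 14.4, 3.88, 2.29 and 4.11 CPM in sedentary 1 to 5 (log2 fold change -2.09 with an SE of 0.47, edgeR adjusted p = 0.0186). The groups did not overlap for Aurkb and Aurka, and exercise 7 lay above sedentary 4 for Plk1. All 3 fell in the 8 libraries (-1.60, -1.57 and -1.16 on the log2 scale). The call of Plk1 was lost without exercise 8 (edgeR adjusted p = 0.0503) and Aurka was not called when exercise 8 or exercise 9 was left out (edgeR adjusted p up to 0.0547). Birc5, encoding the passenger protein Survivin, fell with 10 libraries (-2.61) and did not pass in the 8 (edgeR adjusted p = 0.0501) or without any 1 of exercise 7 to 10 (highest edgeR adjusted p = 0.0640).

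Of 9 checkpoint, exit and spindle genes, 7 fell. Nusap1, a protein of spindle microtubules, had 1.62, 1.89, 2.42, 2.0 and 1.42 CPM in exercise 6 to 10, against 13.9, 20.2, 5.32, 2.85 and 5.68 CPM in sedentary 1 to 5 and had the smallest p of the mitosis genes (log2 fold change -2.36 with an SE of 0.50, edgeR adjusted p = 0.0148). Bub1, a kinase of the spindle checkpoint, had 0.782, 1.17, 0.69, 1.09 and 0.83 CPM in exercise 6 to 10, against 6.1, 10.7, 2.44, 1.6 and 2.94 CPM in sedentary 1 to 5 (log2 fold change -2.37 with an SE of 0.51, edgeR adjusted p = 0.0156). Neither overlapped between groups, both fell in each fit without a single library, and both fell in the 8 libraries (-1.28 and -1.32). Ube2c, the ubiquitin-conjugating enzyme of the anaphase-promoting complex, had 2.74, 3.65, 2.24, 2.12 and 2.34 CPM in exercise 6 to 10, against 18.9, 36.6, 6.54, 3.67 and 10.7 CPM in sedentary 1 to 5 (log2 fold change -2.54 with an SE of 0.56, edgeR adjusted p = 0.0168). Its groups did not overlap, though exercise 7 lay just below sedentary 4 (3.65 and 3.67 CPM). Ube2c fell in the 8 libraries (-1.38), and the fits that left out exercise 8 or exercise 9 did not call it (edgeR adjusted p up to 0.0513). The checkpoint gene Bub1b (-2.03), the anaphase activator gene Cdc20 (-2.28), and the spindle genes Kif11 (-2.22) and Tpx2 (-1.98) fell with 10 libraries, and of these 4 only Kif11 passed in the 8. Each of the 4 calls was lost without exercise 6, 8, 9 or 10, those of Bub1b and Cdc20 also without exercise 7, and those of Bub1b, Cdc20 and Tpx2 also without sedentary 1 or 2, with a highest edgeR adjusted p between 0.0629 and 0.0892. The kinetochore gene Cenpf (-1.42, edgeR adjusted p = 0.100) and Prc1, which bundles microtubules of the central spindle (-1.43, edgeR adjusted p = 0.0539), did not pass. In both, exercise 7 was higher than sedentary 3 and 4, and for Cenpf it was also higher than sedentary 5.

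**Figure D4:**
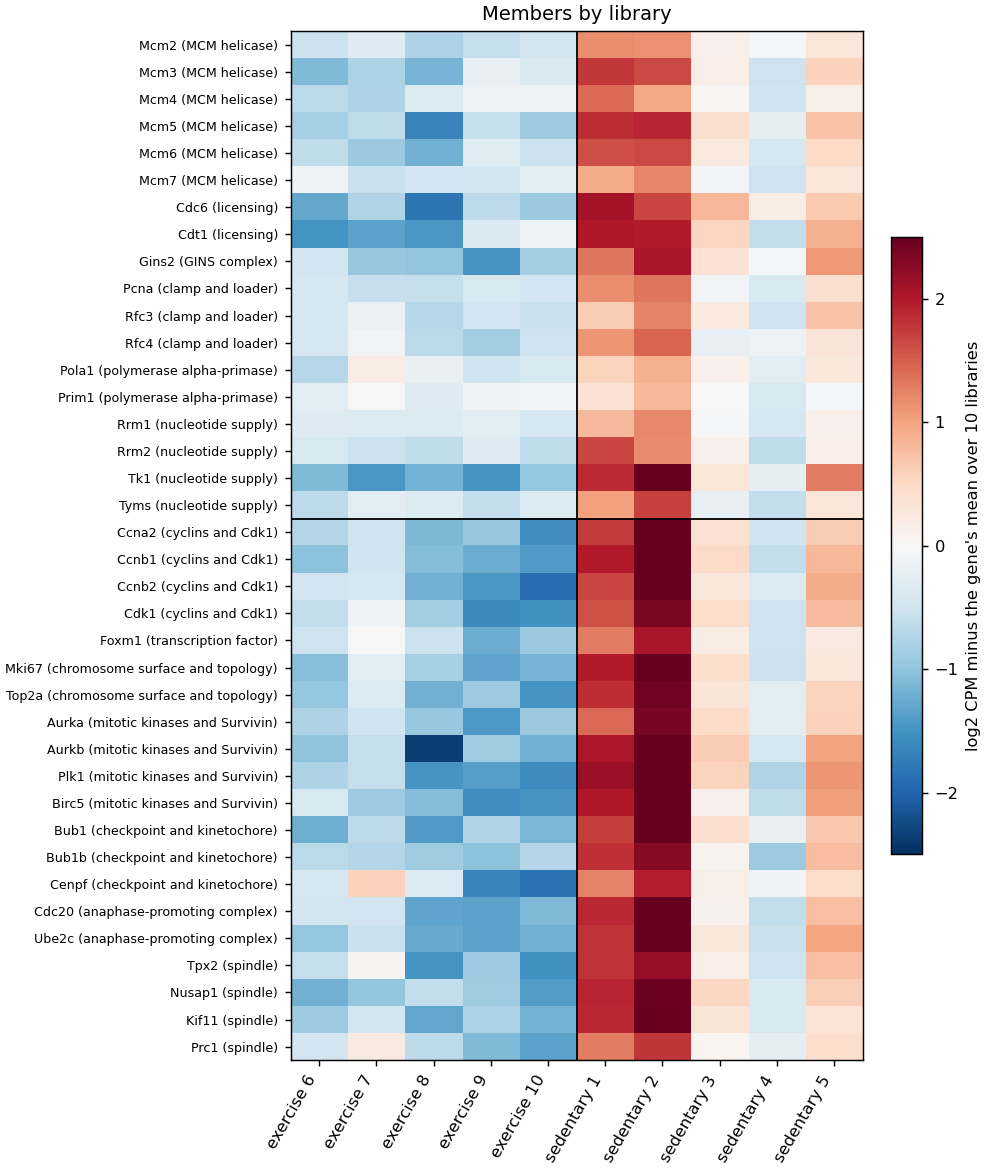
Log2 CPM of each gene minus its mean over 10 libraries (colour), with genes in rows by role, replication above the line and mitosis below, and exercise libraries left of sedentary libraries. Sedentary 1 and 2 are the darkest red columns, and sedentary 4 is the lowest of its group, with 37 of 38 genes at their sedentary low there.

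Sedentary 1, 2 and 4 kept nearly the same places across the 38 genes, and the exercise libraries did not. The highest level was in sedentary 2 for all 20 mitosis genes and for 12 replication genes, and in sedentary 1 for the other 6 replication genes, while 35.1% of all genes tested were highest in sedentary 2 and 12.5% in sedentary 1. Sedentary 1 and 2 were the 2 highest libraries for 37 of 38 genes, against 29.4% of all genes. Every exercise library lay below every sedentary library for 9 of 20 mitosis and 6 of 18 replication genes, against 11.4% of all genes tested, and above every sedentary library for 0 of 38, against 6.24% of all genes. Over all 10 libraries, 17 of 20 mitosis genes were lowest in exercise 9 or 10, whereas the lowest library varied more among replication genes, with exercise 8 lowest for 7 of 18.

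Per kilobase of transcript (the longest APPRIS principal transcript in GENCODE M21), Pcna was the highest of the 38 genes in both groups, at a mean of 15.1 CPM per kb in exercise and 33.0 CPM per kb in sedentary libraries. In exercise libraries 9 of the 10 highest levels per kb were those of replication genes, led after Pcna by Mcm7 (4.15), Rrm1 (3.81) and Mcm6 (3.45 CPM per kb), and the mitosis gene was Ube2c (2.71). In sedentary libraries 6 of the 10 highest were mitosis genes, led by Ube2c (15.8), Birc5 (10.9) and Top2a (8.65 CPM per kb). The lowest levels per kb in exercise were those of Gins2 (0.170), Cdc6 (0.232), Cenpf (0.251) and Bub1 (0.267).

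Longer lists of the same pathways, which do not hold the 38 genes, fell in part. With 10 libraries edgeR called 11.4% of all genes lower and 2.44% higher, and without sedentary 1 and 2 it called 8.68% and 4.10%. Limma-voom called 2.22% of all genes lower and 1.16% higher, and DESeq2 called 17.3% and 7.17%. Of 46 tested genes of a list of 47 other replication genes, 22 fell and 0 rose, with a median log2 fold change of -0.94, and without sedentary 1 and 2, 10 fell and the median was -0.43. That count was 2 without exercise 8, where 5.16% of all genes fell, and 5 or 6 without another single exercise library. It was 8 without sedentary 1, 11 without sedentary 2 and 30 without sedentary 4, where 17.7% of all genes fell. Rpa2, of the protein that coats single-stranded DNA, had 3.21 ± 0.393 CPM in exercise and 6.96 ± 2.04 CPM in sedentary libraries (log2 fold change -1.11 with an SE of 0.23, edgeR adjusted p = 0.0140). Gmnn, encoding the licensing inhibitor geminin, had 1.53 ± 0.351 CPM in exercise and 6.78 ± 4.4 CPM in sedentary libraries (log2 fold change -2.14 with an SE of 0.45, edgeR adjusted p = 0.0143). Ticrr, needed to fire origins, had 0.392 ± 0.0542 CPM in exercise and 3.02 ± 3.01 CPM in sedentary libraries (log2 fold change -2.92 with an SE of 0.65, edgeR adjusted p = 0.0170). Of 53 tested genes of a list of 54 other mitosis genes, 34 fell and 0 rose, with a median of -1.84, and without sedentary 1 and 2, 9 fell, 1 rose (Spc25, a kinetochore gene) and the median was -0.79. That count of genes that fell was 4 to 10 without a single exercise library, 8 without sedentary 1, 9 without sedentary 2 and 50 without sedentary 4. Their smallest p-values were those of the kinesin gene Kif2c (-2.59), the condensin gene Ncapg (-2.46) and the citron kinase gene Cit (-1.84), with edgeR adjusted p = 0.0114, 0.0135 and 0.0141. All 6 named genes fell in the 8 libraries, with log2 fold changes of -0.80 for Rpa2, -1.23 for Gmnn, -1.55 for Ticrr, -1.67 for Kif2c, -1.43 for Ncapg and -1.17 for Cit. The call of Ticrr was lost without exercise 8 (edgeR adjusted p = 0.0512). Limma-voom called 0 genes of either list. Its unadjusted p was under 0.05 for 28 of the replication and 45 of the mitosis list, beside 5202 of all 15298 genes. DESeq2 called 28 and 50 lower and 1 of the mitosis list, Spc25, higher.

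Of 19 genes for E2F factors, retinoblastoma proteins and subunits of the DREAM complex, 3 fell and 0 rose, beside the 11.4% of all genes that fell, and the median log2 fold change was -0.20 with 10 libraries and -0.07 with 8. The 3 were E2f2, an E2F activator, E2f8, an atypical E2F that represses, and Mybl2, which activates mitosis genes. E2f2 had 4.29 ± 0.707 CPM in exercise and 18 ± 12 CPM in sedentary libraries (log2 fold change -2.06 with an SE of 0.43, edgeR adjusted p = 0.0133). E2f8 had 1.15 ± 0.41 CPM in exercise and 10.3 ± 11.1 CPM in sedentary libraries (log2 fold change -3.17 with an SE of 0.71, edgeR adjusted p = 0.0183). Mybl2 had 0.867 ± 0.214 CPM in exercise and 3.88 ± 2.76 CPM in sedentary libraries (log2 fold change -2.15 with an SE of 0.50, edgeR adjusted p = 0.0207; SD, n = 5 each throughout). All 3 fell in the 8 libraries as well (-1.08, -1.54 and -1.09). E2f8 was not called when exercise 8 or 9 was left out, nor Mybl2 when exercise 6, 7 or 8 was (edgeR adjusted p up to 0.0540 and 0.0598). Limma-voom called 0 of the 19, with 5 at an unadjusted p under 0.05, beside 5202 of all 15298 genes. DESeq2 called 5 lower, adding E2f3 and Rbl1, beside 17.3% of all genes. The count by edgeR was 1 to 5 without a single library, beside 5.16% to 17.7% of all genes. It was lowest without exercise 8 and highest without sedentary 4.

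Genes of the small intestinal epithelium, and in part those of the intestinal crypt, also fell. For comparison, edgeR called 11.4% of all genes lower with 10 libraries, 8.68% without sedentary 1 and 2, and 5.16% to 17.7% without a single library. Limma-voom called 2.22% of all genes lower. Of 28 genes of the small intestinal epithelium 27 fell and 0 rose, with 10 libraries (median log2 fold change -4.52) and without sedentary 1 and 2 (-3.10). They were led in level by Apoa4, an apolipoprotein of absorbed fat (119.5 ± 98.3 CPM in exercise and 2076 ± 1500.0 CPM in sedentary libraries), and Alpi, intestinal alkaline phosphatase (51.2 ± 32.7 CPM in exercise and 1167 ± 1016 CPM in sedentary libraries). Of 12 tested crypt genes, out of 14, 6 fell and 0 rose (median log2 fold change -1.75), and 5 of 13 fell without sedentary 1 and 2 (-0.80). With 10 libraries 10 of the 12 had a negative log2 fold change, and the highest was 0.48. Limma-voom called 0 of the 12, with 7 at an unadjusted p under 0.05, beside 5202 of all 15298 genes. The count by edgeR was 3 without a single one of exercise 7 to 10. The summed level of the 14 crypt genes was 69.2 to 87.8 CPM in exercise libraries. In sedentary 1 to 5 that sum was 209, 915, 167, 96.4 and 163 CPM, and Olfm4 alone gave 555 CPM of it in sedentary 2. Olfm4, a marker of crypt stem cells, had 29.3, 22, 14.8, 17.7 and 17.4 CPM in exercise 6 to 10, against 77.9, 555, 76.7, 35.6 and 84.7 CPM in sedentary 1 to 5. The other most abundant crypt gene, Slc12a2, had 20.1 ± 2.22 CPM in exercise and 46.5 ± 45.8 CPM in sedentary libraries and did not pass (edgeR adjusted p = 0.121). The level of the small intestinal list, taken as the mean log2 CPM of its genes, was then used as a covariate. With it edgeR called 0 of the 38 genes, 0 of which had an unadjusted p under 0.05. The median log2 fold change turned to 0.22 for replication and 0.29 for mitosis genes. In that fit 10 of the 38 stayed negative, among them Cdc6 (-1.07), Mcm5 (-0.37) and Aurkb (-0.16). That level followed the group (r squared 0.805), so group and covariate cannot be told apart in this fit, in which 0 of all genes were called and 248 had an unadjusted p under 0.05.

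Immune, vascular, stromal and exocrine lists gave different pictures. Their counts stand beside 11.4% of all genes lower and 2.44% higher by edgeR, and 17.3% and 7.17% by DESeq2. Limma-voom called 1.16% of all genes higher, and edgeR called 4.10% higher without sedentary 1 and 2. In edgeR fits without a single library 5.16% to 17.7% of all genes fell and 0.847% to 5.77% rose. Of 16 lymphocyte genes 1 fell (Cd8a, the T cell coreceptor), or 0 without exercise 7 or 8, 4 without sedentary 4 and 7 by DESeq2. Their sum ranged from 111 to 381 CPM in exercise libraries, and it was 1499 CPM in sedentary 1 and 101.5 CPM in sedentary 2. The most abundant were Jchain (96.5 ± 39.6 CPM in exercise and 234 ± 231 CPM in sedentary libraries) and Ptprc (30.2 ± 16.4 CPM in exercise and 76.2 ± 82.9 CPM in sedentary libraries). Of 13 macrophage, 12 endothelial and 12 stromal genes edgeR called 0 with 10 libraries, and DESeq2 called 1, 1 and 2. Unadjusted edgeR p was under 0.05 for 1 macrophage, 2 endothelial and 3 stromal genes, beside 5105 of all 15298 genes. Macrophage genes summed to 206 to 528 CPM in exercise and 64.4 to 749 CPM in sedentary libraries (Lyz2 and C1qa most abundant). Endothelial genes summed to 304 to 387.5 CPM in exercise and 90.8 to 362 CPM in sedentary libraries (Plvap and Flt1). Stromal genes summed to 128.5 to 184 CPM in exercise and 45.9 to 237 CPM in sedentary libraries (Rgs5 and Dcn). Of 22 acinar genes 13 rose, and they summed to 143600 to 379900 CPM in exercise and 64980 to 133400 CPM in sedentary libraries (Cela2a and Ctrb1 most abundant). That count was 2 without exercise 6, exercise 7, sedentary 2 or sedentary 5, 3 without exercise 9, 5 without sedentary 3, 6 without exercise 8, 14 without sedentary 1 and 2, 5 by limma-voom and 20 by DESeq2. With the acinar genes' mean log2 CPM as covariate (r squared with the group 0.657), edgeR called 0 of all genes, the 38 included. Unadjusted p was under 0.05 for 8 replication and 6 mitosis genes, beside 1593 of all 15298 genes. All 38 log2 fold changes stayed negative. Group and covariate cannot be told apart in this fit. No gene of these marker lists was without a count in either group. The part of these other lists in the result was not tested.

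**Figure D5:**
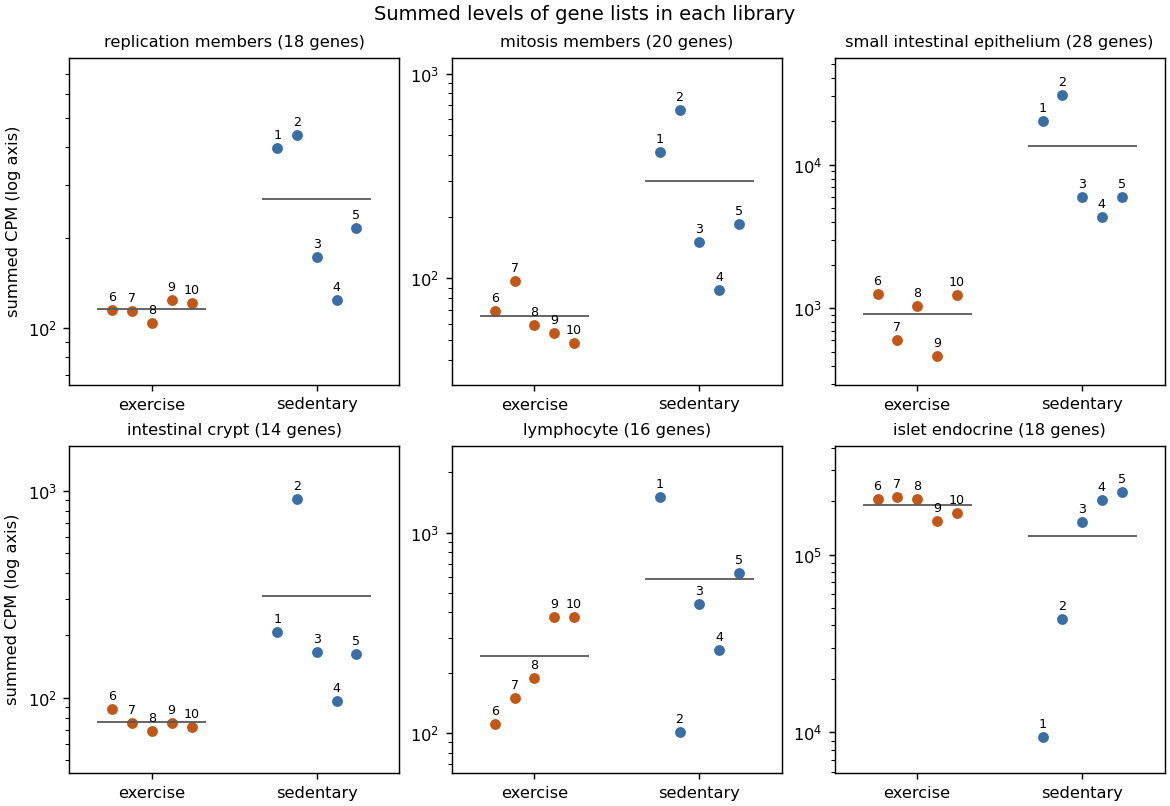
Summed CPM (y axis, log scale) of the replication and mitosis genes and of 4 marker lists in each exercise library and each sedentary library (points labelled by library number, lines are group means). Sedentary 1 and 2 are highest for replication, mitosis and small intestinal genes and lowest for islet endocrine genes, whereas for lymphocyte genes sedentary 1 is highest and sedentary 2 lowest.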

How the data were processed

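Islet RNA of 10 libraries was measured by RNA-seq from column-purified RNA and stranded mRNA libraries, per the labels' protocols. The authors deposited estimated counts per Ensembl gene. Per the submitters' processing notes the tools were fastp, which trims reads, and kallisto, which estimates counts per transcript. Genome build, annotation and the step from transcripts to genes were not given in the sources used here. Fractional deposited values were rounded, and they made up 12.6% (tolerance 1e-06). All 10 columns were matched to samples by name. Symbols came from a table of Ensembl IDs. Depth was 15081922 to 23222704 counts per library. Values for the 38 genes rest on 51 to 1981 counts over the exercise libraries and 258 to 4752 over the sedentary libraries, so low genes are less precise. Counts were whole in every library for 22 of the 38 genes, and genes with near-identical copies remain uncertain.

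Exercise was compared with sedentary in R 4.3.3 with edgeR 4.0.16 (quasi-likelihood test, default filter with minimum count 10 and total 15, TMM scaling, Benjamini-Hochberg adjustment over 15298 genes, threshold 0.05). SE is the log2 fold change divided by the square root of the F statistic. CPM use TMM-scaled library sizes. Alternatives were other scalings and filters, DESeq2 1.42.0, limma-voom (limma 3.58.1), robust edgeR, equal depth, left-out libraries, covariates, and acinar genes taken out before scaling. The genes and lists were chosen with earlier results of these data known. Values in every library were given for the 8 genes of smallest p among those past the threshold in each of the replication and mitosis lists, and for Mki67, Top2a, Pcna, Mcm2, Cdk1, Ccnb1, Rrm2 and Cdt1. From longer pathway lists the 3 genes of smallest p were named, and from marker lists the 2 most abundant. Lin54 of the regulator list had no matching symbol and is not analysed here.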

Additional observations from a re-analysis of the deposited data

How the results depend on the processing

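All 38 genes kept a negative log2 fold change under every scaling, filter and test run, with the acinar covariate and without each single library, except Prim1 without sedentary 1 and 2 (0.02) and those that turned with the intestinal covariate below. With RLE scaling, upper quartile scaling, the other filters, robust edgeR, equal depth and acinar genes taken out, the counts of replication and mitosis genes that fell moved by less than 1.5 times, and Rfc3 was the 1 call lost among the 38. In the longer lists, no filter gave 19 other replication and 26 other mitosis genes lower, against 22 and 34. Under library totals 4408 genes fell and 159 rose, or 96.5% lower against 82.4%, and the median of all genes was -0.34 (0.11 with upper quartile scaling). Relative to that median, replication and mitosis genes stood at -1.12 and -2.23, and 17 replication genes fell. DESeq2 gave 2642 lower and 1097 higher genes and 16 replication genes lower. Limma-voom gave 339 and 177, with 1 replication and 0 mitosis genes lower. Without sedentary 1 and 2, 644 genes rose and 6 replication genes fell, and the mitosis median lay 0.59 below that of replication (difference -0.59), against -1.11 with 10 libraries. For these shifts the cause was not tested. Leaving out a single library gave 800 to 2721 lower and 132 to 889 higher genes, 4 to 17 replication and 4 to 19 mitosis genes lower, 0 of either higher, median log2 fold changes of replication and mitosis genes of -1.31 to -0.94 and -2.5 to -1.73, and a difference of -1.20 to -0.78.

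With the acinar list's level as a covariate, 0 genes fell and 0 rose (edgeR, 1593 at an unadjusted p under 0.05), with 0 replication and 0 mitosis genes lower and a difference of -0.68. With the intestinal list's level, 0 genes fell and 0 rose (248 at an unadjusted p under 0.05), also 0 of either list, and the sign turned for 28 of the 38: the medians were 0.22 and 0.29 and the difference 0.0689. Cdc6 (-1.07), Mcm5 (-0.37), Aurkb (-0.16) and 7 others stayed negative. Among those of the 38 and of the named pathway and regulator genes that were called with 10 libraries and turned, log2 fold changes were Mcm3 0.017, Mcm6 0.13, Pcna 0.41, Tk1 0.32, Gins2 0.10, Mki67 0.56, Ccna2 0.38, Ccnb1 0.16, Ccnb2 0.51, Cdk1 0.28, Bub1b 0.88, Aurka 0.44, Plk1 0.19, Cdc20 0.80, Birc5 0.91, Ube2c 0.35, Nusap1 0.22, Kif11 0.31, Gmnn 0.27, Ticrr 0.65, Kif2c 0.31, Ncapg 0.25, E2f2 0.17, E2f8 0.63 and Mybl2 0.09. The others of the 38 that turned, not called with 10 libraries, were Mcm4 0.49, Mcm7 0.86, Rrm1 0.59, Rrm2 0.48, Tyms 0.98, Rfc4 0.44, Prim1 0.52, Foxm1 0.83, Cenpf 0.24 and Prc1 0.20. The covariates shared most of their variance with the group (r squared 0.805 intestinal, 0.657 acinar), so these fits cannot tell group and covariate apart. No paired analysis was possible because the groups share no replicate number. Depth limits the genes of few counts most, such as Cdc6.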

Other observations

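Within the list of other mitosis genes, 52 of 53 tested genes had a negative log2 fold change, and Spc25, a kinetochore subunit, had a positive one. It was picked after its values were seen. It had 189, 243, 276, 212 and 231 CPM in exercise 6 to 10, against 11.1, 34.1, 124, 134 and 122 CPM in sedentary 1 to 5. Its mean in exercise libraries was 230 CPM, whereas the means of the 20 mitosis genes there lay between 0.914 and 10.97 CPM. Whether the Spc25 level follows dividing cells was not tested. Without sedentary 1 and 2 it rose (log2 fold change 0.89, edgeR adjusted p = 0.00258), and with 10 libraries it did not pass in edgeR (log2 fold change 1.44, edgeR adjusted p = 0.102) but passed in DESeq2 (DESeq2 adjusted p = 0.0381). Every exercise library lay above every sedentary library. Its sedentary lows were in sedentary 1 and 2, the libraries with the lowest sums of islet endocrine genes.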
